A study of Homo sapiens with 9 samples.

Results

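The cholesterol synthesis pathway and its transcription factor SREBP2 were followed through 8 genes: HMGCS1, IDI1, FDPS, FDFT1, SQLE, DHCR7, SREBF2 and INSIG1. They were chosen by symbol, and all 8 were among the 58387 genes of the deposited count table. All 8 also passed the filter on low counts, which left 16600 genes. Expression was measured by RNA-seq in MM1S, an established human multiple myeloma cell line grown in medium with serum, in 9 libraries. KD_Rescued cells (n = 2) carried the shRNA against PHF19 together with an shRNA-resistant PHF19. PHF19_KD cells (n = 3) carried the shRNA alone, delivered by lentivirus, and shEV cells (n = 3) carried the empty vector. The last library is titled as knockdown replicate 4, while its shRNA label names the resistant PHF19. It was therefore kept apart as the disputed library and entered no test. PHF19 binds to and assists PRC2, the Polycomb complex that methylates histone H3, so the comparisons ask how sterol genes stand when PHF19 is depleted and when it is put back. The labels say neither whether replicates were separate cultures nor whether the infected cells were a pool or a clone. Where they were not separate, the p-values reflect technical spread alone.

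Cells build cholesterol from acetyl-CoA through mevalonate, isoprenoid diphosphates and squalene. SREBP2, the protein of SREBF2, is held in the endoplasmic reticulum by SCAP and INSIG proteins while sterols are plentiful. When sterols run low it travels to the Golgi, is cut by the proteases MBTPS1 and MBTPS2 and switches on most genes of the pathway. It binds sterol regulatory elements and usually acts with the factors NF-Y and Sp1 bound nearby. Myeloma cells depend on the mevalonate branch for protein prenylation, and the aminobisphosphonates given for myeloma bone disease inhibit the FDPS enzyme.

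Of the 8 genes, 6 had an entry in a RefSeq promoter table (GRCh38.p14), which spans 250 bases before the start of the gene and 50 after it. SQLE and FDFT1 had none there. Shown are the 250 bases before the start of SREBF2, which held the sterol regulatory element, and of HMGCS1 and FDPS, which held 2 and 3 NF-Y boxes. The INSIG1 promoter, which held 1, is shown as well. Each is written 5′ to 3′ on the strand of the gene, with NF-Y boxes (CCAAT, or ATTGG on the other strand) and the sterol regulatory element in capitals.
SREBF2, chr22:41832855-41833104, plus strand: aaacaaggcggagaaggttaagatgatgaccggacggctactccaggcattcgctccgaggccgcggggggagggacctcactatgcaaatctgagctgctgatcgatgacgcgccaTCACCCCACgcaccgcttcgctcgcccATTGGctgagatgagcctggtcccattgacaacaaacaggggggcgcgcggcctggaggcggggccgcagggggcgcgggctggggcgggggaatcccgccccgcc
HMGCS1, chr5:43313413-43313662, minus strand: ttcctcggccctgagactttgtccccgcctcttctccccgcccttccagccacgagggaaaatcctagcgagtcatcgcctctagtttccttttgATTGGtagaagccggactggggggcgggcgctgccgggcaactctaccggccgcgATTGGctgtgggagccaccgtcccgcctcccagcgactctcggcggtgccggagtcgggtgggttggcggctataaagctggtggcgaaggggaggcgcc
FDPS, chr1:155308616-155308865, plus strand: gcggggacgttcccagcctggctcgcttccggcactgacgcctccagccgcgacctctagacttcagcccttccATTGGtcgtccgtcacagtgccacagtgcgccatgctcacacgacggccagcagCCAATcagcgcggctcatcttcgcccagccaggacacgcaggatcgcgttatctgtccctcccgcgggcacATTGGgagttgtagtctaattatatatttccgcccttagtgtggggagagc
INSIG1, chr7:155297628-155297877, plus strand: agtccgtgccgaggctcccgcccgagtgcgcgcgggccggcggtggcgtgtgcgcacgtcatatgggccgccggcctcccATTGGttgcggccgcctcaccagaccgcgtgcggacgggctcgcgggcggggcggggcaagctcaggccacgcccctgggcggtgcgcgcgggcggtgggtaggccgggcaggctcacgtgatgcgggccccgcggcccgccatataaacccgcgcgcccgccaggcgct

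Motifs were matched by their exact letters on both strands of the whole window. The sterol regulatory element TCACNCCAC was found in 1 of the 6 promoters, that of SREBF2, where it began 133 bases before the start, and in 1.13% of all 35116 promoters of the table. CCAAT was present in 5 of the 6, against 34.6% of all promoters, with 3 matches in FDPS, 2 each in HMGCS1 and DHCR7, and 1 each in INSIG1 and SREBF2. In SREBF2 the NF-Y box lay 106 bases before the start, downstream of the sterol regulatory element and not overlapping it. The Sp1 box GGGCGG was present in 6 of 6 against 45% of all promoters, and some of its matches overlapped each other in INSIG1 and SREBF2. The E-box CACGTG was present in 1 of 6 (INSIG1) against 7.26%. Of the 16 cholesterol synthesis enzymes with an entry, 0 held TCACNCCAC, 12 held CCAAT, 14 held GGGCGG and 2 held CACGTG. These matches describe letters in a window and are not measured binding sites. Variants of the letters were not searched, so a promoter without a match may still hold such an element. HMGCS1, FDPS and INSIG1 fell in the knockdown, and so did IDI1, which held no NF-Y box. DHCR7 held 2 and its change did not pass the test. SREBF2 held 1 and the sterol regulatory element, and it rose. Whether motifs go with the fold changes was not tested.

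**Figure D1:**
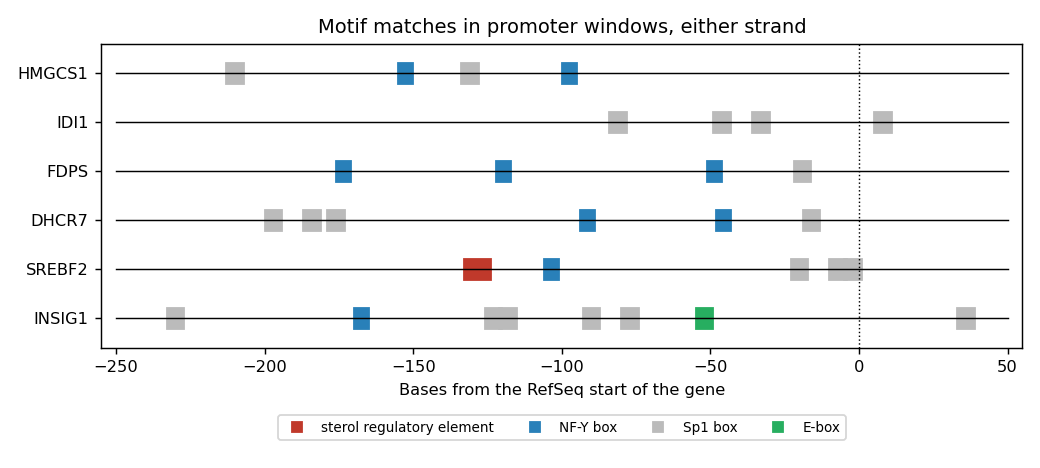
Positions of motif matches in the promoter windows of the 6 genes with an entry, in bases from the RefSeq start of the gene (x axis), with 1 row per gene and 1 colour per motif. The sterol regulatory element was matched in SREBF2 alone of these 6, NF-Y boxes in all but IDI1, and Sp1 boxes in all 6.

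PHF19 itself followed the labels of the 8 undisputed libraries. It had 220 and 218 CPM (counts scaled to library size) in the KD_Rescued libraries, 26.0, 27.5 and 27.3 CPM in the PHF19_KD libraries, and 123, 124 and 103 CPM in the shEV libraries. The disputed library lay between PHF19_KD and shEV at 63.6 CPM. Library totals were 23644123 and 23751353 counts in KD_Rescued, 10609798 to 12024913 in PHF19_KD, 16974728 to 22739741 in shEV and 10164112 in the disputed library. The mitochondrial genome gave 5.08% ± 0.133 of the KD_Rescued counts (SD, n = 2), 9.60% ± 0.519 of the PHF19_KD counts and 3.16% ± 0.279 of the shEV counts (SD, n = 3 for both). Per the library names, both KD_Rescued libraries ran in lane 2 and the others in lane 6, so the effect of the lane and that of the rescue cannot be told apart. None of the 10 plasma cell markers was at 0 in any group. Their summed level was 4420 to 4514 CPM in KD_Rescued, 4534 to 4592 CPM in PHF19_KD and 4797 to 4858 CPM in shEV. Single markers moved in opposite directions within that sum, with log2 fold changes of -1.07 to 1.16 in PHF19_KD relative to shEV. There 4 of the 10 rose, 4 fell and 2 did not pass, while 34.9% of all tested genes rose and 34.2% fell. In bulk RNA, a smaller share of cells expressing a gene and less of its RNA per cell cannot be told apart.

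The knockdown moved the pathway in both directions. Relative to shEV, 5 of the 8 genes fell in PHF19_KD (HMGCS1, IDI1, FDPS, SQLE and INSIG1), 2 rose (FDFT1 and SREBF2), and DHCR7 did not pass the test. In KD_Rescued relative to PHF19_KD, 5 were higher (HMGCS1, IDI1, FDPS, SQLE and DHCR7), 2 were lower (FDFT1 and SREBF2), and INSIG1 did not pass. KD_Rescued differed from shEV in 1 gene, FDPS, which was higher. The median log2 fold change of the 8 genes was -0.43 for PHF19_KD against shEV and 0.03 over all tested genes. For KD_Rescued against PHF19_KD the medians were 0.44 and 0.03, and for KD_Rescued against shEV 0.05 and 0.02.

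Changes were widespread, so the counts have a high background. For PHF19_KD against shEV, 69.1% of all 16600 genes were called at an adjusted p below 0.05 (34.9% higher and 34.2% lower). For KD_Rescued against PHF19_KD the share was 63.4% (33.9% higher and 29.5% lower), and for KD_Rescued against shEV it was 39.8% (20.7% higher and 19.1% lower). Read against these shares, 7 of 8 called genes in each of the first 2 comparisons is not particular to sterol genes. In PHF19_KD against shEV, 7 of the 8 genes had separate ranges in the groups, as did 72% of all genes. In KD_Rescued against PHF19_KD 8 of 8 did (77.2% of all genes), and in KD_Rescued against shEV 3 of 8 (61.7%). The first 2 comparisons share the PHF19_KD libraries, so a gene that was low in those 3 libraries is lower in one and higher in the other. With upper-quartile scaling the median over all genes became 0.19 for PHF19_KD against shEV and -0.12 for KD_Rescued against PHF19_KD. The share of calls that were higher became 60.6% against 50.5% in the first of these and 42.1% against 53.4% in the second. The directions called for the 8 genes in both comparisons held under that scaling, but the call of INSIG1 in the first and that of DHCR7 in the second were lost, at adjusted p = 0.384 and 0.353.

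**Figure D2:**
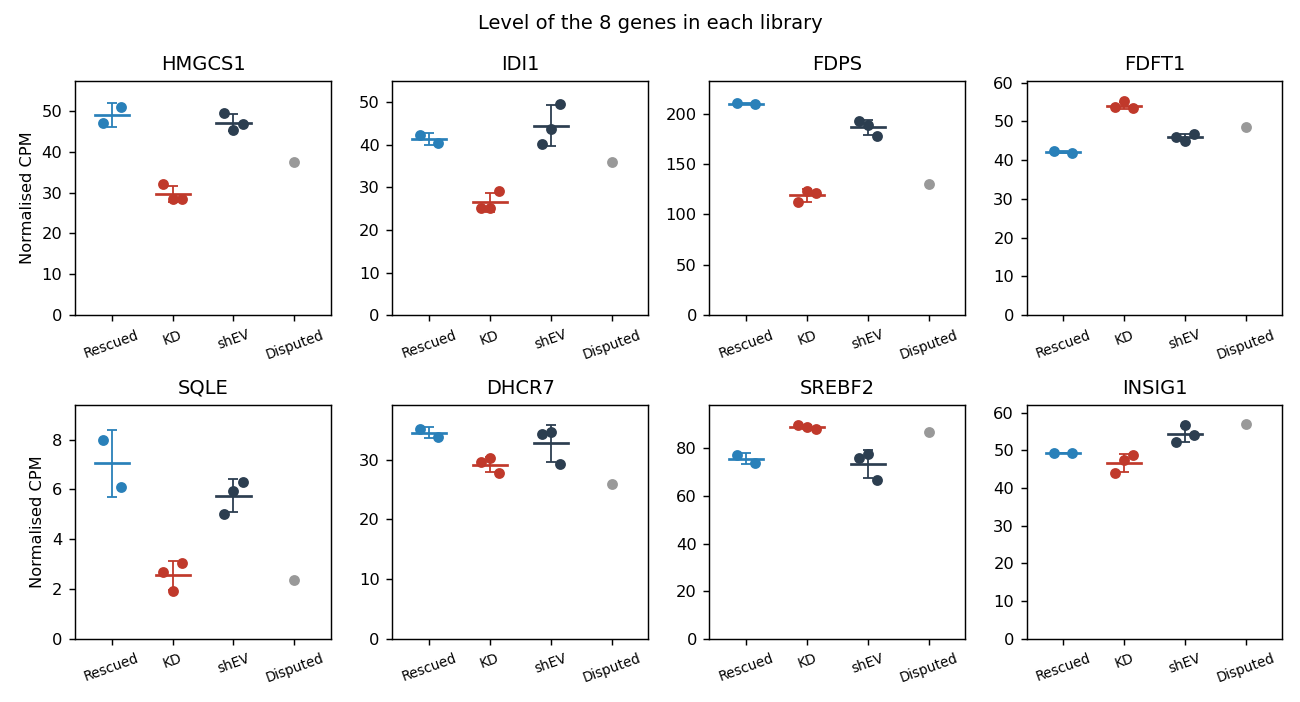
Normalised CPM (y axis, from 0) of the 8 genes in each library (points) of KD_Rescued, PHF19_KD, shEV and the disputed library, with the group mean and SD as bars where a group has more than 1 library. HMGCS1, IDI1, FDPS and SQLE were lower in all 3 PHF19_KD libraries than in the KD_Rescued and shEV libraries, and FDFT1 and SREBF2 were higher.

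HMGCS1 condenses acetyl-CoA and acetoacetyl-CoA into HMG-CoA, the precursor of mevalonate. It had 47.0 and 51.0 CPM in KD_Rescued, 32.0, 28.5 and 28.4 CPM in PHF19_KD cells, and 49.4, 45.4 and 46.7 CPM in shEV. All 3 knockdown libraries were below every other undisputed library, while KD_Rescued and shEV overlapped. The log2 fold change was -0.67 ± 0.07 (SE) for PHF19_KD against shEV, 62.8% of the control mean (adjusted p = 2.78e-06). It was 0.73 ± 0.07 for KD_Rescued against PHF19_KD (adjusted p = 3.34e-06) and 0.05 ± 0.07 for KD_Rescued against shEV, with a 95% interval of -0.10 to 0.20 (adjusted p = 0.561).

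IDI1 isomerises isopentenyl diphosphate, the building block of all isoprenoids. It stood at 42.3 and 40.4 CPM in KD_Rescued, 25.2, 25.2 and 29.1 CPM in PHF19_KD cells, and 40.1, 43.8 and 49.7 CPM in shEV. The pattern was that of HMGCS1, with the knockdown libraries apart and the other groups overlapping. IDI1 fell by 0.74 ± 0.09 on the log2 scale in PHF19_KD relative to shEV (adjusted p = 1.04e-05). It was higher by 0.64 ± 0.10 in KD_Rescued than in PHF19_KD (adjusted p = 9.00e-05), and the difference between KD_Rescued and shEV was -0.10 ± 0.09 with an interval of -0.30 to 0.09.

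FDPS joins isoprenoid units into farnesyl diphosphate, from which both sterols and prenyl groups are made. Its levels were 210.1 and 209 CPM in KD_Rescued, 112, 124 and 122 CPM in PHF19_KD cells, and 193, 189 and 178 CPM in shEV. No library of one group reached the range of another. The knockdown held 63.9% of the control mean, a log2 fold change of -0.65 ± 0.05 (adjusted p = 2.44e-07), and KD_Rescued was higher than PHF19_KD by 0.82 ± 0.06 (adjusted p = 8.78e-08). FDPS also ended above the control in KD_Rescued, by 0.17 ± 0.05 (adjusted p = 0.0255). That call was lost without either KD_Rescued library (adjusted p = 0.134 without replicate 1 and 0.133 without replicate 2), without mitochondrially encoded genes (0.0531) and in 5 further settings, and with the disputed library counted as KD_Rescued the value was -0.0567. FDPS has 8 processed copies in the table, FDPSP1 to FDPSP8, which together held 0.254% to 0.65% of its count in a library.

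FDFT1, the squalene synthase that commits farnesyl diphosphate to sterols, moved the other way. It had 42.3 and 41.9 CPM in KD_Rescued, 53.6, 55.3 and 53.4 CPM in PHF19_KD cells, and 46.1, 44.8 and 46.7 CPM in shEV. The knockdown libraries were the highest and the rescued libraries the lowest, with no overlap among the groups. FDFT1 rose by 0.24 ± 0.05 in PHF19_KD relative to shEV (adjusted p = 0.00112), a level 118% of the control mean. With no filter on low counts that value was 0.15 and no longer passed (adjusted p = 0.0666). KD_Rescued was lower than PHF19_KD by a log2 fold change of -0.36 ± 0.06 (adjusted p = 0.000115), and KD_Rescued against shEV gave -0.12 ± 0.05 (adjusted p = 0.0918).

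SQLE, the squalene epoxidase, catalyses a rate-limiting step of sterol synthesis. It was the gene of the 8 with the fewest counts, with 146 to 192 in KD_Rescued, 23 to 35 in PHF19_KD and 107 to 117 in shEV, so its errors are the widest. Its level was 7.99 and 6.09 CPM in KD_Rescued, 2.70, 1.90 and 3.04 CPM in PHF19_KD cells, and 5.02, 5.92 and 6.31 CPM in shEV. Every knockdown library was below every rescued and control library. The log2 fold change was -1.17 ± 0.20 for PHF19_KD against shEV (adjusted p = 0.000183), or 44.3% of the control mean, and 1.47 ± 0.20 for KD_Rescued against PHF19_KD (adjusted p = 4.60e-05). KD_Rescued against shEV gave 0.30 ± 0.17 with an interval of -0.07 to 0.67 (adjusted p = 0.187).

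DHCR7 carries out the last reduction on one route to cholesterol. It had 35.2 and 33.8 CPM in KD_Rescued, 29.6, 30.2 and 27.8 CPM in PHF19_KD cells, and 34.4, 34.6 and 29.2 CPM in shEV. The third shEV library lay within the knockdown range. For PHF19_KD against shEV the log2 fold change was -0.17 ± 0.08 (adjusted p = 0.0702), and without that library it was -0.24 and passed (adjusted p = 0.00174). It also passed with no filter on low counts (-0.26, adjusted p = 0.00202) and without mitochondrially encoded genes (-0.20, adjusted p = 0.0341). DHCR7 was higher in KD_Rescued than in PHF19_KD by 0.24 ± 0.08 (adjusted p = 0.0238). This second call was lost in 7 of 17 alternatives. Among them were leaving out PHF19_KD replicate 3 (adjusted p = 0.0928) and leaving out KD_Rescued replicate 1 or 2 (0.113 and 0.0541).

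SREBF2, the gene of the transcription factor, was higher in the knockdown. It had 77.2 and 74.0 CPM in KD_Rescued, 89.9, 88.8 and 88.2 CPM in PHF19_KD cells, and 75.7, 77.8 and 66.7 CPM in shEV. All knockdown libraries exceeded the others, and KD_Rescued and shEV overlapped. SREBF2 rose by 0.28 ± 0.06 in PHF19_KD relative to shEV (adjusted p = 0.00137) and was lower in KD_Rescued than in PHF19_KD, at -0.23 ± 0.07 (adjusted p = 0.00810). Without KD_Rescued replicate 2 this second value was -0.20 and did not pass (adjusted p = 0.0756). The RNA level of SREBF2 does not measure the cleaved, active form of SREBP2. MIR33A, the microRNA gene in an intron of SREBF2, had 0 counts in all 9 libraries. Whether these libraries could capture so short an RNA was not tested, so this does not show its absence.

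INSIG1, itself a target of SREBP2, retains SCAP and SREBP2 in the endoplasmic reticulum. Its levels were 49.3 and 49.2 CPM in KD_Rescued, 44.1, 47.5 and 48.7 CPM in PHF19_KD cells, and 52.2, 56.6 and 54.2 CPM in shEV. The rescued libraries lay between the knockdown and control libraries, with no overlap among the groups. INSIG1 fell by 0.22 ± 0.06 in PHF19_KD relative to shEV (adjusted p = 0.00534). With the disputed library counted as PHF19_KD or as KD_Rescued the call was lost, at -0.13 and -0.19 (adjusted p = 0.172 and 0.102). KD_Rescued against PHF19_KD gave 0.07 ± 0.06 with an interval of -0.06 to 0.21 (adjusted p = 0.321). KD_Rescued against shEV gave -0.14 ± 0.06 (adjusted p = 0.0849), which passed without shEV replicate 3 (adjusted p = 0.0432).

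**Figure D3:**
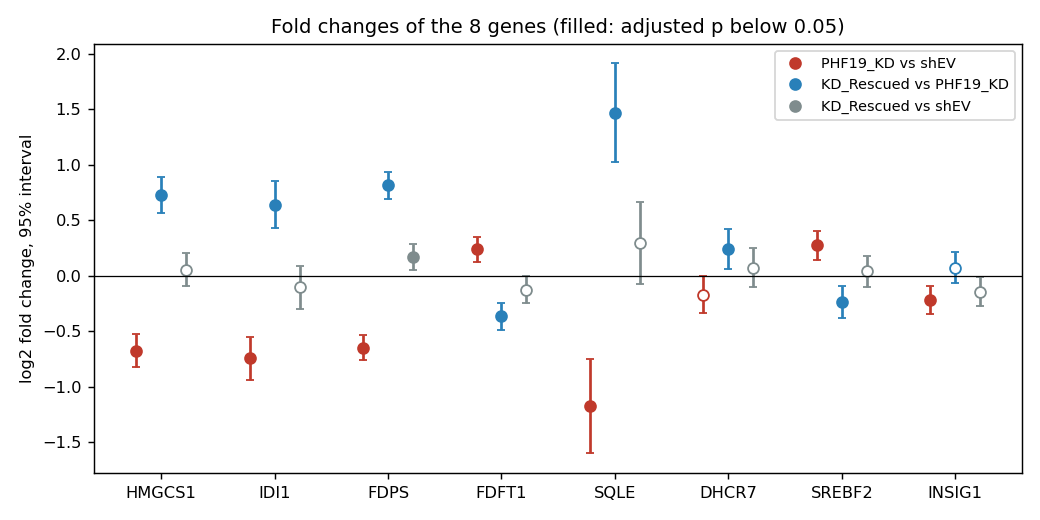
Log2 fold changes with 95% intervals (y axis) of the 8 genes in the 3 comparisons, with filled points where the adjusted p was below 0.05. SQLE fell by 1.17 in the knockdown, HMGCS1, IDI1 and FDPS by 0.65 to 0.74, and for KD_Rescued against shEV only FDPS passed.

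Estimated counts can divide reads between similar genes. Values that were not whole numbers were seen for HMGCS1 and FDPS in 9 of 9 libraries, for SREBF2 in 8 and for IDI1 in 7, so a part of their counts may be uncertain. SQLE, FDFT1, INSIG1 and DHCR7 had whole counts in all 9 libraries. The calls of HMGCS1, IDI1, FDPS and SQLE in PHF19_KD against shEV and in KD_Rescued against PHF19_KD held in all 17 alternatives, as did that of SREBF2 in PHF19_KD against shEV. Where the libraries with changed PHF19 differed in these genes, they also differed in proliferation markers. All 5 of these (MKI67, TOP2A, PCNA, CCNB1 and CDK1) fell in the knockdown. Their summed level was 1677 to 1701 CPM in KD_Rescued, 222 to 243 CPM in PHF19_KD and 1761 to 1939 CPM in shEV. The part of proliferation, of library depth and of the mitochondrial share in the sterol gene changes was not tested.

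The rest of the pathway also moved in both directions. Among the 15 further enzymes between acetyl-CoA and cholesterol, 8 fell in PHF19_KD relative to shEV, 4 rose and 3 did not pass (median log2 fold change -0.23). Over all genes 34.2% fell and 34.9% rose there (median 0.03). In KD_Rescued relative to PHF19_KD, 9 of the 15 were higher, 1 was lower and 5 did not pass (median 0.28). For all genes the shares were 33.9% higher and 29.5% lower (median 0.03). With the 6 enzymes among the 8 genes included, the summed level of all 21 enzymes was 1198 to 1222 CPM in KD_Rescued, 818 to 850 CPM in PHF19_KD and 1198 to 1224 CPM in shEV. The knockdown libraries lay below all other undisputed libraries in this sum. MVK and MSMO1 passed in neither of these comparisons, and HSD17B7 only when KD_Rescued was set against PHF19_KD (0.40 ± 0.10, adjusted p = 0.00305). Unlike FDFT1, 3 enzymes that rose in the knockdown did not pass in KD_Rescued against PHF19_KD. They were MVD (-0.12 ± 0.16), LSS (0.07 ± 0.07) and SC5D (0.01 ± 0.09).

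Upstream of mevalonate, ACAT2, the thiolase that forms acetoacetyl-CoA, had 20.4 and 19.4 CPM in KD_Rescued, 6.42, 6.70 and 8.07 CPM in PHF19_KD cells, and 23.6, 22.7 and 25.0 CPM in shEV. It fell by 1.75 ± 0.10 in the knockdown relative to shEV (adjusted p = 1.19e-08). PMVK, the phosphomevalonate kinase, also fell (-0.46 ± 0.07). MVD, the mevalonate diphosphate decarboxylase next to it in the pathway, rose (0.63 ± 0.15, adjusted p = 0.00315).

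After squalene, a pair of enzymes for the same reaction moved apart. TM7SF2 and LBR both encode sterol reductases acting on the product of CYP51A1, and LBR is also a lamin receptor of the inner nuclear membrane. TM7SF2 had 5.57 and 6.55 CPM in KD_Rescued, 38.9, 41.2 and 41.5 CPM in PHF19_KD cells, and 6.51, 7.38 and 5.72 CPM in shEV. It rose by 2.63 ± 0.10 in the knockdown relative to shEV (adjusted p = 3.25e-10), and KD_Rescued against PHF19_KD gave -2.74 ± 0.11 (adjusted p = 9.03e-10). LBR had 288 and 273 CPM in KD_Rescued, 138, 128 and 139.6 CPM in PHF19_KD cells, and 303, 305 and 327 CPM in shEV. It fell by 1.21 ± 0.05 in the knockdown relative to shEV (adjusted p = 9.13e-10), and KD_Rescued was 1.05 ± 0.05 higher than PHF19_KD (adjusted p = 8.23e-09). In both genes the knockdown libraries stood apart from all rescued and control libraries, and both genes had whole counts in every library.

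Later in the pathway, EBP, a sterol isomerase, fell by 1.42 ± 0.06 in the knockdown relative to shEV (adjusted p = 1.03e-09), to 38.2 CPM on average in PHF19_KD against 102 CPM in shEV. NSDHL, a sterol dehydrogenase, fell by 0.60 ± 0.08. CYP51A1, the sterol demethylase, fell by 0.23 ± 0.05, with values of -0.33 to -0.07 over 17 alternatives. This call was lost in 3 of them, among them upper-quartile scaling at -0.08 (adjusted p = 0.254). LSS, which closes the sterol rings, rose by 0.28 ± 0.07. SC5D, a sterol desaturase, rose by 0.25 ± 0.09 (adjusted p = 0.0254), a call lost in 6 of 17 alternatives. Among them were leaving out PHF19_KD replicate 1 or 3 or shEV replicate 1 (adjusted p = 0.0817, 0.0791 and 0.0721).

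**Figure D4:**
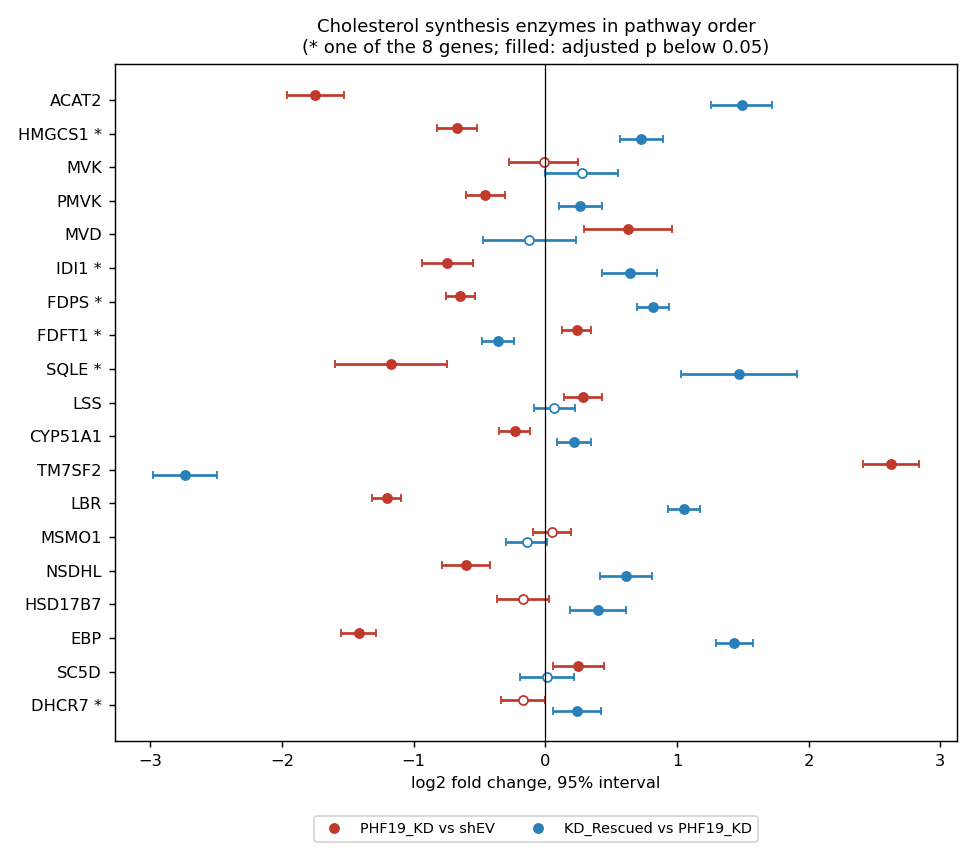
Log2 fold changes with 95% intervals (x axis) of 19 cholesterol synthesis enzymes in pathway order from top to bottom, for PHF19_KD against shEV and for KD_Rescued against PHF19_KD, with filled points where the adjusted p was below 0.05. EBP reached -1.42 and TM7SF2 2.63 in the knockdown, and both had the opposite sign in KD_Rescued against PHF19_KD.

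Between KD_Rescued and shEV, 6 of the 21 enzymes were called, against 39.8% of all genes. FDPS, MVD (0.51 ± 0.16), LSS (0.35 ± 0.07) and SC5D (0.26 ± 0.09) were higher in KD_Rescued, while ACAT2 (-0.26 ± 0.09) and LBR (-0.15 ± 0.05) were lower. This count rests on few libraries. Over 17 alternatives the call was lost in 12 for SC5D, 8 for LBR, 7 for ACAT2, 5 for MVD and 2 for LSS. That of FDPS was lost in 8, and its direction was reversed in 1. Without KD_Rescued replicate 1 or replicate 2, 1 enzyme was called higher and 0 lower. Without PHF19_KD replicate 1 or 3, or without shEV replicate 1, 1 enzyme was called lower. Over all genes, 6599 calls became 4253 without KD_Rescued replicate 1 and 4048 without replicate 2.

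The SREBP system itself had its largest fold change in the knockdown at SREBF1, the gene of the paralogous factor that chiefly serves fatty acid synthesis. It had 38.8 and 36.8 CPM in KD_Rescued, 170.3, 179 and 166 CPM in PHF19_KD cells, and 22.97, 23.97 and 17.5 CPM in shEV. The 3 groups did not overlap. SREBF1 rose by 2.99 ± 0.09 in the knockdown relative to shEV (adjusted p = 3.12e-10). KD_Rescued against PHF19_KD gave -2.18 ± 0.10 (adjusted p = 9.20e-09), and KD_Rescued was above shEV by 0.81 ± 0.10 (adjusted p = 0.000151). By comparison, SREBF2 rose by 0.28 in the knockdown. The table does not separate the isoforms of SREBF1.

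Apart from SREBF2 and INSIG1, 12 SREBP processing and sterol sensing genes were tested. In PHF19_KD relative to shEV 3 rose, 5 fell and 4 did not pass, while 34.9% of all genes rose and 34.2% fell. Beside SREBF1, the rises included that of MBTPS1, the first protease that cuts SREBPs (0.37 ± 0.05, adjusted p = 1.74e-05). The falls included those of AUP1 (-0.77 ± 0.05) and FAF2 (-0.60 ± 0.05), which work in degradation at the endoplasmic reticulum, and of C12orf49, an SREBP regulator (-0.55 ± 0.07). The ubiquitin ligase gene RNF145 fell too (-0.38 ± 0.05). The escort protein SCAP did not pass (0.06 ± 0.08), nor did INSIG2 (0.02 ± 0.06), the second protease MBTPS2 (-0.03 ± 0.06) or RNF139 (0.02 ± 0.06). In KD_Rescued relative to PHF19_KD, 5 of the 12 were higher and 5 lower, against 33.9% and 29.5% of all genes. MBTPS2 (-0.37 ± 0.07) and RNF139 (-0.29 ± 0.07) were lower there although neither had passed in the knockdown comparison. AUP1, RNF145 and MBTPS2 had values that were not whole in 9 of 9 libraries.

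**Figure D5:**
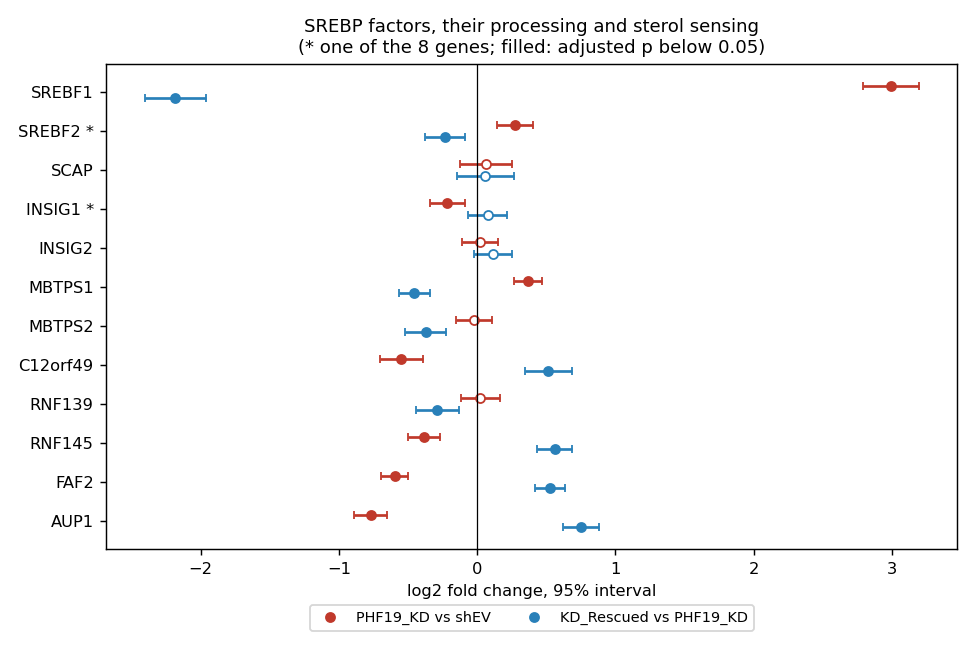
Log2 fold changes with 95% intervals (x axis) of SREBF1, SREBF2 and 10 genes of SREBP processing and sterol sensing, for PHF19_KD against shEV and for KD_Rescued against PHF19_KD, with filled points where the adjusted p was below 0.05. SREBF1 stands far to the right in the knockdown at 2.99, while SCAP and INSIG2 lie near 0 in both comparisons.

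Genes that bring in, move and store sterols also changed in both directions. Of 10 such genes 9 could be tested. In PHF19_KD relative to shEV 6 rose and 3 fell, against 34.9% and 34.2% of all genes. LIPA, the lysosomal acid lipase that frees cholesterol from its esters, rose by 1.03 ± 0.05 (adjusted p = 3.44e-09), and NPC2, which carries cholesterol inside lysosomes, by 0.75 ± 0.05. TMEM97, a binding partner of the cholesterol exporter NPC1, fell by 1.36 ± 0.06 (adjusted p = 1.24e-09), and SOAT1, which esterifies cholesterol, by 0.48 ± 0.05. TMEM97 and NPC2 had values that were not whole in 9 of 9 libraries. In KD_Rescued relative to PHF19_KD, 3 genes of this list were higher, 4 lower and 2 did not pass. Of all genes, 33.9% were higher and 29.5% lower in that comparison.

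The neighbouring lipid pathways gave similar mixtures. Among 12 fatty acid synthesis genes known as SREBP1 targets, 2 rose, 8 fell and 2 did not pass in PHF19_KD relative to shEV. ACSS2, which makes acetyl-CoA from acetate, rose by 0.83, GPAM, an acyltransferase of triglyceride synthesis, fell by 1.51, and the desaturase gene FADS1 fell by 0.50. LPIN1 rose by 0.12, a call lost in 10 of 17 alternatives, among them leaving out PHF19_KD replicate 1 or 3, shEV replicate 2 or 3, or either KD_Rescued library (adjusted p between 0.0518 and 0.146). Among 11 genes of the isoprenoid branch, 3 rose, 6 fell and 2 did not pass. PDSS1, which builds the side chain of ubiquinone, fell by 1.94, and NUS1, a subunit of the enzyme for dolichol, fell by 0.90. GGPS1, which makes geranylgeranyl diphosphate from the product of FDPS, rose by 0.35, and RABGGTB, a subunit of the Rab prenyltransferase, rose by 0.46. In KD_Rescued relative to PHF19_KD the counts were 6 higher and 1 lower for the fatty acid genes and 6 higher and 2 lower for the isoprenoid genes. In KD_Rescued relative to shEV they were 0 and 1, and 3 and 2. Over all genes, 34.9% were higher and 34.2% lower in PHF19_KD against shEV. The shares were 33.9% and 29.5% in KD_Rescued against PHF19_KD, and 20.7% and 19.1% in KD_Rescued against shEV.

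Markers of other cell types were low throughout, apart from PECAM1. Of 18 such markers 5 had enough counts to be tested. In PHF19_KD relative to shEV 4 of these rose and 1 fell, against 34.9% and 34.2% of all genes. The summed level of the 18 was 30.7 to 31.0 CPM in KD_Rescued, 46.7 to 47.9 CPM in PHF19_KD and 16.2 to 17.3 CPM in shEV. Most of it was PECAM1, which plasma cells also carry. Its mean was 27.5 CPM in KD_Rescued, 39.7 CPM in PHF19_KD and 13.7 CPM in shEV. PECAM1 rose by 1.53 ± 0.06 on the log2 scale in PHF19_KD relative to shEV. CD3D and NKG7 were at 0 in all 9 libraries.

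Likeness between profiles was described by Pearson's r of log2 CPM over the 8 undisputed libraries, which fall into 3 groups, so a high r mostly reflects the group means. Among the 8 genes HMGCS1 and FDPS had an r of 0.952, but 13% of the 9738 genes compared were more like HMGCS1 than FDPS was. SQLE and IDI1 had an r of 0.935. FDFT1 ran opposite to FDPS (r = -0.971), and SREBF2 opposite to IDI1 (r = -0.942). The genes outside the lists most like each were CCNK for HMGCS1 (0.995), USP12 for IDI1 (0.999), WDR62 for FDPS (0.998), EIF3H for FDFT1 (0.995) and ZNF431 for SQLE (0.994). For DHCR7 it was DAPK3 (0.988), for SREBF2 TECPR2 (0.990) and for INSIG1 FAM86DP (0.983).

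The disputed library did not side with one group for these genes. It had 2.37 CPM of SQLE, 130.2 CPM of FDPS and 25.9 CPM of DHCR7, closer to the PHF19_KD mean than to that of KD_Rescued or shEV. IDI1 was at 35.9 CPM and HMGCS1 at 37.6 CPM, between the knockdown and control libraries. SREBF2 was at 86.7 CPM and FDFT1 at 48.6 CPM, above every KD_Rescued and shEV library, and INSIG1 was at 56.9 CPM, above every other library.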

How the data were processed

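The authors deposited estimated counts per gene for 9 libraries, unscaled. CASAVA, RSEM and the build hg19 appear in the submitters' processing notes with neither role nor version. The table's own name points to salmon, so the program behind the estimated counts is not settled. The sources used here do not state annotation, filters or strand. Between 15.6% and 19.4% of a library's values were not whole (tolerance 0.01). Per the labels' protocols, 1 µg of total RNA per library went into an Illumina kit.

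Counts were rounded, and edgeR 4.0.16 under R 4.3.3 gave quasi-likelihood tests (filterByExpr by group, TMM scaling, robust fits), with Benjamini-Hochberg adjustment over 16600 genes and a threshold of 0.05. The 8 undisputed libraries entered 1 fit, so the spread for the 2 KD_Rescued libraries is shared with the other groups. The SE is the size of the log2 fold change over the root of F. Replicate pairs differed beyond counting noise, with a chi-square per degree of freedom of 8.14 and 9.15 for the pairs with shEV replicate 3, which stood apart, and 1.37 to 2.25 for the others. None was thus treated as a repeat deposit, which does not show that the cultures were independent. The fit was tested on simulated data.

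The 8 genes and the lists were chosen with earlier results of these data known. Named were these genes, all cholesterol enzymes and SREBP genes, at most 2 rises and 2 falls per other list and comparison, and the genes of nearest profile. Some genes of the lists are not reported here by name, though list counts and sums include them. Promoters were read from a RefSeq table (GRCh38.p14), apart from the counts, which carry no coordinates. The alternatives included RLE and upper-quartile scaling, DESeq2 1.42.0 and leaving out each library.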

Additional observations from a re-analysis of the deposited data

Results flagged for a closer look

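The disputed library was set against shEV as data outside the comparisons. For 3 of the 8 genes it lay above every shEV library: FDFT1 at 48.6 CPM, INSIG1 at 56.9 CPM and SREBF2 at 86.7 CPM. It is a single library whose labels disagree, so no test is given.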

How the results depend on the processing

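Over 17 alternatives, 128 of 136 refits of the 8 genes kept direction and call in PHF19_KD against shEV, 125 in KD_Rescued against PHF19_KD and 111 in KD_Rescued against shEV. For the other named genes the counts were 521 of 544, 510 of 527 and 237 of 306. The cause of a change was not tested.

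For PHF19_KD against shEV, the test without a filter on low counts called 1 of the 8 genes and 3 enzymes higher. That setting had 5659 of 34052 tested genes higher, against 5793 of 16600 in the main fit. For KD_Rescued against PHF19_KD, counting the disputed library as KD_Rescued gave 6207 of 15886 genes, 1 of the 8 genes lower and 8 enzymes higher. Of these 15886 genes, 3338 were higher and 2869 lower, against 5622 and 4904 of 16600 in the main fit. For KD_Rescued against shEV, 0 of the 8 genes were higher with RLE scaling, no filter, DESeq2, no mitochondrial genes, either placing of the disputed library, or only the 2 groups compared. Of the 8 genes, 2 (FDFT1 and INSIG1) were lower with RLE scaling and without mitochondrial genes, and 1 (INSIG1) without a filter. There, RLE scaling and leaving out mitochondrial genes each gave 2 enzymes higher and 4 lower. No filter and the 2 groups alone gave 2 higher, DESeq2 gave 1 higher, and the replicate block gave 1 lower. Over all genes the main fit had 3436 higher and 3163 lower of 16600. RLE scaling had 3006 and 3866 of 16600, and leaving out mitochondrial genes 3140 and 3583 of 16655. Higher were 3277 of 34052 without a filter, 2854 of 15959 in the 2 groups alone and 2226 of 16600 with DESeq2. With the replicate block 3100 of 16600 were lower. Placing the disputed library gave 0 enzymes in either direction. Over all genes, 4047 of 16481 were called when it counted as PHF19_KD and 2464 of 15886 as KD_Rescued.

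INSIG1 in KD_Rescued against PHF19_KD, not called, was -0.0791 with upper-quartile scaling and -0.0587 with the disputed library as PHF19_KD. In KD_Rescued against shEV, SREBF2 was -0.0055 with RLE scaling, -0.0099 without a filter, -0.0054 with DESeq2, and -0.0032 with the disputed library as PHF19_KD. With 1 library left out, SREBF2 ranged from -0.0232 (without shEV replicate 3) to 0.0782, DHCR7 from -0.00085 (without shEV replicate 3) to 0.110, and HMGCS1 from -0.0121 (without KD_Rescued replicate 2) to 0.109. With the disputed library as KD_Rescued, HMGCS1 was -0.0907, SQLE -0.0658, FDPS -0.0567, DHCR7 -0.0759 and NPC2 0.30.

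With 1 library left out, calls ran from 10729 to 11754 genes in PHF19_KD against shEV, with 2 of the 8 genes higher, 5 to 6 lower, 4 to 5 enzymes higher and 12 to 13 lower. They ran from 9013 to 11322 in KD_Rescued against PHF19_KD, with 4 to 5 and 1 to 2 of the 8 genes higher and lower, 12 to 14 enzymes higher and 2 lower. In KD_Rescued against shEV they ran from 4048 to 7539, with 0 to 1 of the 8 genes higher, 0 to 1 lower, 1 to 5 enzymes higher and 0 to 3 lower. Where 1 KD_Rescued library was left, it was assumed to vary like the other groups.

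Same-numbered libraries correlated at 0.0256 or less in their deviations, so no pairing by replicate number was seen. With only 2 or 3 libraries in a group, this check cannot exclude a pairing. The replicate block gave 11537 calls in PHF19_KD against shEV, where DHCR7 then passed (-0.16, adjusted p = 0.0377). In KD_Rescued against shEV, ACAT2 and LBR did not pass with it (adjusted p = 0.073 and 0.0639). Depth limits SQLE, with 23 to 35 counts in PHF19_KD.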
